A study of Rattus norvegicus with 14 samples.

Results

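Adult rat hippocampus was compared with adult rat heart on Affymetrix rat expression arrays, on which short oligonucleotides grouped into probe sets read each transcript. The comparison comprised every array titled as hippocampus or heart of a 10 week old adult, 8 of the 14 arrays in the series. These were 2 samples per tissue, numbered here hippocampus 1 and 2 and heart 1 and 2, with 2 technical arrays each. The adults were male Sprague–Dawley rats without any genetic change or treatment, and their RNA was bought from the supplier Zyagen. The other 6 arrays, 3 per tissue, came from untreated 1 week old Sprague–Dawley pups whose tissue was extracted in the laboratory, so age, RNA source and preparation cannot be told apart in any adult against pup comparison. Titles give 2 biological replicates with 2 technical replicates each, whereas the source names, like the paper, count every adult array of a tissue as a biological replicate of its own. The titles were followed. Neither the labels nor the paper says that different rats gave these replicates, and the methods speak of the adult rat in the singular. The spread between adult samples may therefore be technical only. The p-values pool it with the spread between pup samples, so variation between adult rats may not be in them.

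Hippocampus is a brain region of excitatory pyramidal and granule neurons, inhibitory interneurons and glia. Its neurons signal by releasing glutamate or GABA from vesicles onto receptors anchored in a dense protein scaffold, and some of its mRNAs are carried into dendrites. Heart is mainly cardiac muscle, in which myosin motors pull on actin filaments each time calcium is released from internal stores, driven by mitochondria that burn chiefly fatty acids. It also holds fibroblasts, vessels and nerve endings. In RNA from whole tissue, fewer cells of a type and less RNA per cell cannot be told apart.

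Values are the deposited log2 levels, with the technical arrays of a sample averaged. A difference is always hippocampus minus heart on the log2 scale, with its standard error (SE) from limma. It is called where the Benjamini-Hochberg adjusted p over all probe sets was under 0.05, and a gene is then written as higher or lower in hippocampus. Arrays of the same sample correlated at 0.938 in hippocampus and 0.959 in heart, arrays of different samples of a tissue at 0.938 and 0.943, and arrays of different tissues at 0.865 (means of Pearson's r across probe sets, which are not independent). The median SD between the 2 samples was 0.21 in hippocampus and 0.25 in heart. The technical arrays differed by a median SD of 0.33 and 0.29, which for a mean of 2 arrays corresponds to 0.23 and 0.21. In the array's control probe sets for beta-actin, the 3′ end exceeded the 5′ end by 2.42 to 3.20 in hippocampus and by 4.0 to 4.75 in heart, without overlap, and for GAPDH by 0.41 to 0.72 and 0.41 to 1.08. The part of this beta-actin difference in the results below was not tested.

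Of 31042 probe sets, 6052 were called (19.5%), 2863 higher and 3189 lower in hippocampus. Read by the brightest probe set of each gene, 2855 of 14217 genes were called (20.1%), of which 1351 were higher (9.5%) and 1504 lower (10.6%). The median difference over all genes was −0.01. Among called genes the median size was 1.61, the smallest 0.72, and sizes of at least 4 were reached by 41 higher and 48 lower genes. All 2855 called genes had sample values that did not overlap between tissues, and for 2676 the single arrays did not overlap either. The calls rest on these same values, and the share without overlap over all genes is not given, so this adds no support. Where samples do not overlap, leaving out 1 of them cannot change the sign. The sign of all 2855 stayed as it was when any 1 adult sample was left out, but only 1131 of them (39.6%) were called without each of the 4 samples in turn.

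How often a gene was called depended on how bright it was. The share called was 14.8% among genes with a mean level under 8, reached 28.9% between 10 and 11, and was 2.83% between 14 and 15 and 0.454% above 15. The level is the upper decile over the probes of a set, as given in the methods, and the top of the scale was near 16. Among the bright genes were several that textbooks assign to 1 of the tissues. *Gfap*, the intermediate filament of astrocytes, was at 14.56 and 14.68 in hippocampus and 14.46 and 14.56 in heart. *Nrgn*, a calmodulin-binding protein of dendritic spines, was at 15.17 and 15.05 against 15.36 and 15.10. *Nkx2-5*, a transcription factor of heart muscle, was at 14.67 and 15.27 against 15.44 and 15.40. The arrays of the tissues overlapped in *Gfap* and *Nrgn*, while in *Nkx2-5* both heart samples lay above both hippocampus samples without a call (−0.45, adjusted p = 0.262). Each was read by a single probe set. Genes known from other organs could be as bright, such as *Crybb2*, a lens crystallin (15.51 and 15.27 against 15.20 and 15.02), and *Umod*, a kidney protein (13.73 and 13.66 against 14.26 and 13.71). The study itself lists *Crybb2* as an activity-regulated gene that is highly expressed in rat dendrites. A missing call for a bright gene thus says little about its transcript. Whether the summary over probes contributed was not tested.

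**Figure D1:**
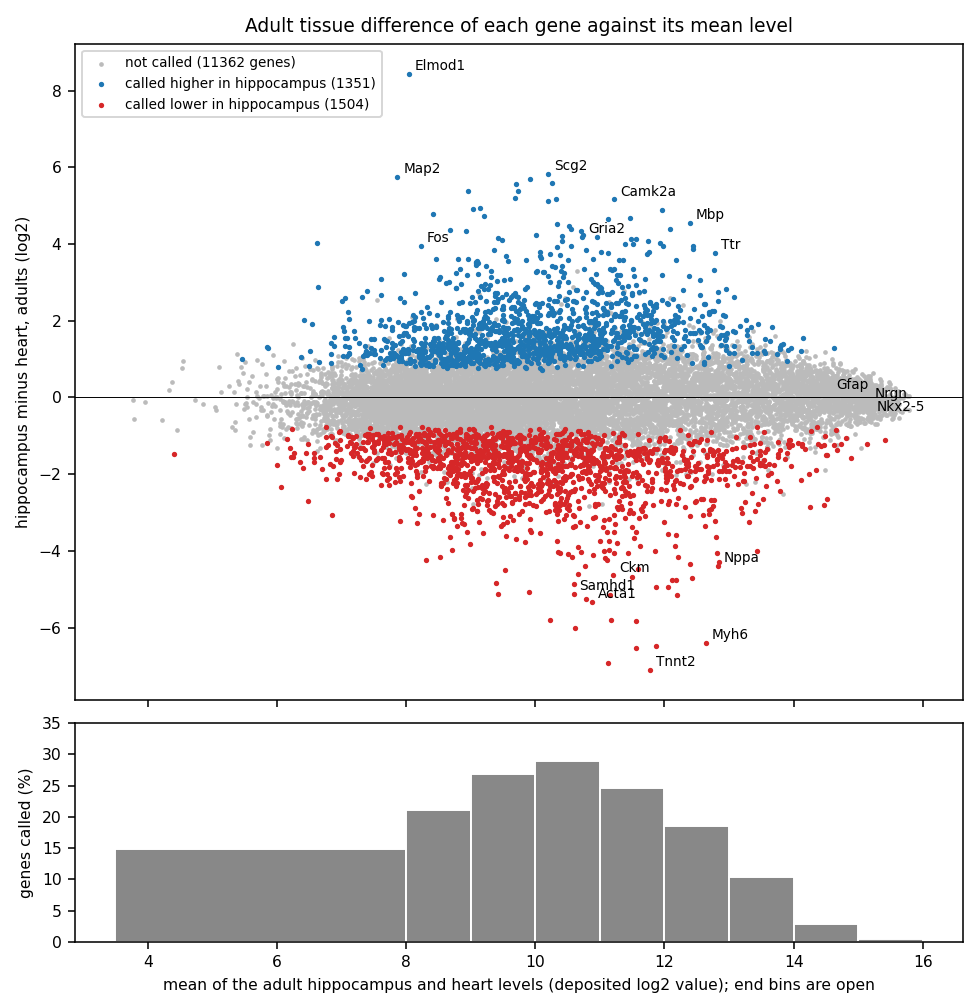
Upper panel: hippocampus minus heart in adults (log2, vertical axis) against the mean level of the tissues (deposited log2 value, horizontal axis) for each of 14217 genes, in blue where called higher in hippocampus (1351), red where called lower (1504) and grey otherwise. Lower panel: percent of genes called in bins of the same level. The cloud narrows to the right and the share called goes from 28.9% at levels of 10 to 11 to 0.454% above 15, where *Nrgn* and *Nkx2-5* lie.

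The 3 largest differences towards heart, in *Tnnt2*, *Myh7* and *Tnnc1*, were in contractile genes. Of 11 measured genes of myosins and the thick filament, 10 were lower in hippocampus and 0 higher, with a median of −4.94, beside −0.01 over all genes. *Myh6*, the fast cardiac myosin heavy chain, was at 9.60 and 9.29 in hippocampus and at 15.82 and 15.86 in heart, close to the top of the scale, a difference of −6.39 (SE 0.65, adjusted p = 0.000269). *Myh7*, the slow cardiac heavy chain, was at 7.86 and 7.49 against 14.51 and 14.65, a difference of −6.91 (SE 0.59, adjusted p = 0.000132). Both myosins were far above hippocampus in both heart samples. The myosin light chains *Myl3* (−5.79) and *Myl4* (−5.79), the regulatory chain *Myl2* (−4.94), the M-band protein *Myom2* (−5.82) and the giant spring protein *Ttn* (−4.71) were lower by similar amounts. The atrial regulatory chain *Myl7* was at 12.97 and 12.69 against 15.82 and 15.57 (−2.86). Without any 1 adult sample, 9 or 10 of the 11 members were called.

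The thin filament was lower in a subset of its genes. Of 12 measured members, 6 were lower and 0 higher (median −1.76). *Tnnt2*, which ties troponin to tropomyosin in cardiac muscle, was at 8.38 and 8.08 in hippocampus and 15.26 and 15.40 in heart, where it was near the top of the scale (−7.10, SE 0.67, adjusted p = 0.000205). *Tnnc1*, the calcium sensor of cardiac and slow muscle, was at 8.33 and 8.25 against 14.65 and 15.01 (−6.54, SE 0.31, adjusted p = 5.89e-05). The inhibitory troponin *Tnni3* was at 9.02 and 10.22 against 14.65 and 14.89 (−5.15), and the muscle actin *Acta1* at 8.22 and 8.19 against 13.05 and 14.04 (−5.34). No array of hippocampus reached a heart array in these genes. The actin nucleator *Lmod2* (−2.45) and *Tpm1* (−2.64) were also lower, whereas *Tnni1*, the slow skeletal troponin I, was at 9.32 and 9.85 against 9.90 and 9.82 (−0.27).

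At the Z-disc, costamere and intercalated disc, which anchor filaments and join muscle cells, 19 of 28 measured genes were lower and 1 was higher (median −2.55). *Actn2*, the actinin that crosslinks thin filaments, was at 6.91 and 6.80 in hippocampus, under the arrays' mean 10th percentile of 7.12, and at 11.45 and 12.51 in heart (−5.12, SE 0.41, adjusted p = 0.000113). *Myzap* of the intercalated disc (−5.15), the calcineurin-binding *Myoz2* (−5.08), the Z-disc adaptor *Ldb3* (−4.68), desmin, *Des* (−4.59), and the stretch-responsive *Ankrd1* (−4.15) followed. Another probe set of *Ldb3* was higher (1.51, adjusted p = 0.00587). The member that was higher was *Myot*, a Z-disc protein (1.42). Between 16 and 18 of these genes were called when 1 adult sample was left out.

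**Figure D2:**
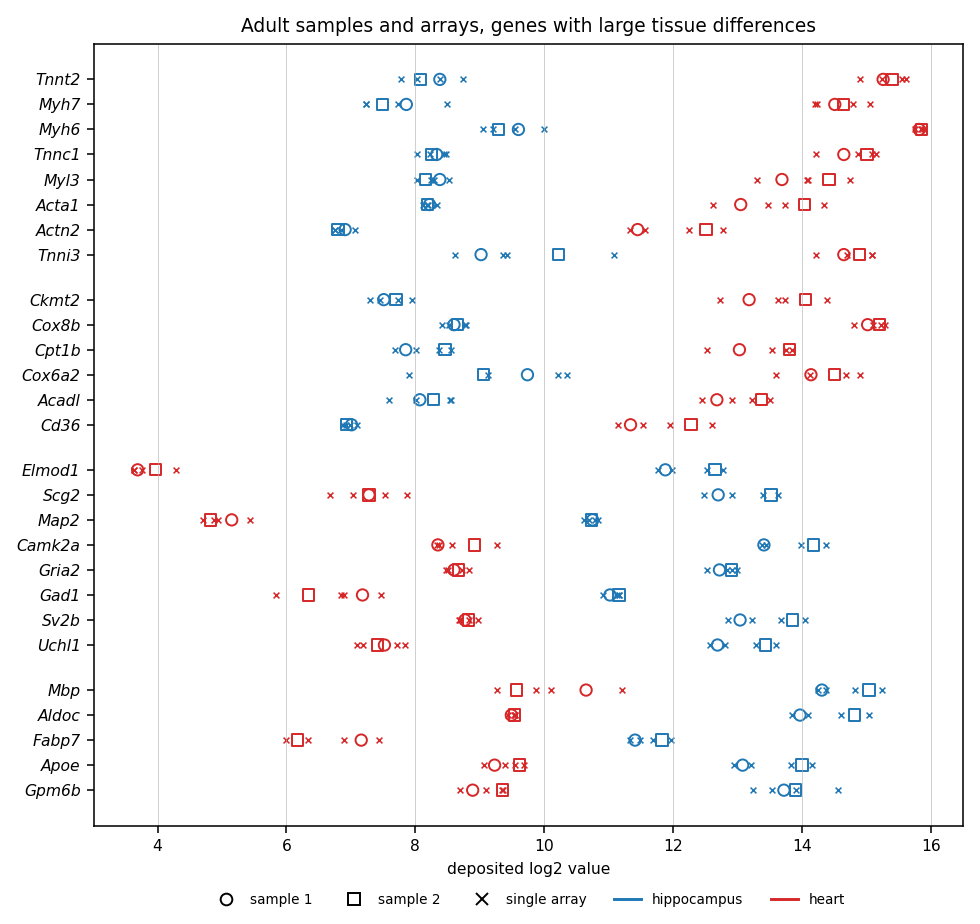
Deposited log2 values (horizontal axis) of 27 genes (rows, in groups of contractile, fuel and energy, synapse and neuron, and glial genes) in adult hippocampus (blue) and heart (red). Circles and squares are samples 1 and 2, crosses the single arrays. In every row the arrays of the tissues do not overlap. *Tnnt2* lies at 8.38 and 8.08 against 15.26 and 15.40, and *Elmod1* at 11.88 and 12.65 against 3.69 and 3.97.

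Promoter sequences are shown for 5 of these strongly lower muscle genes because motifs of muscle transcription factors occur in them. Of 38 promoters of genes lower by at least 4, 9 held the MEF2 core or a CArG box within the window searched and the others neither. The 9 include *Depdc1* (−4.04), which is in none of the muscle gene lists. RefSeq start sites on the GRCr8 assembly were matched for 11700 of the 14217 genes, and the 300 bases around each start were searched on both strands. The core of the MEF2 motif (CTA, any 4 bases, TAG) was present in 11 of 96 promoters of genes lower by at least 3 (11.5%), in 1 of 93 of genes higher by at least 3 (1.08%) and in 3.03% of all. The CArG box, the motif of serum response factor, was present in 4.17%, 0% and 1.35%, and the E-box CAGCTG in 29.2%, 10.8% and 16.6%. TATAAA was present in 15.6%, 8.6% and 8.45%, and the median number of CpG dinucleotides was 10.5, 19 and 19. Matches of different motifs were counted separately and may overlap. These shares describe letters in a window, with no test, and neither binding nor a cause was measured. The 250 bases before the start are printed 5′ to 3′ on the strand of the gene, in lower case, with the match in capitals.
Myl3 promoter, GRCr8 chr8:119616844-119617093, plus strand: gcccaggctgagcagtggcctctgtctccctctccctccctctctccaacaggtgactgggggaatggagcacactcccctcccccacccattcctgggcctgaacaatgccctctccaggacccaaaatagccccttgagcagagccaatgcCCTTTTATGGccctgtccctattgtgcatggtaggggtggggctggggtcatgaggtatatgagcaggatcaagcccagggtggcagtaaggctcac
Acta1 promoter, GRCr8 chr19:68784195-68784444, minus strand: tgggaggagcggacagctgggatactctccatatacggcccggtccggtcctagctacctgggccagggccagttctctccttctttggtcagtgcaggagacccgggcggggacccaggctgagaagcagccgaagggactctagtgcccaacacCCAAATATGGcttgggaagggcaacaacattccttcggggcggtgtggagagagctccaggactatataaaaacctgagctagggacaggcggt
Myoz2 promoter, GRCr8 chr2:213852779-213853028, minus strand: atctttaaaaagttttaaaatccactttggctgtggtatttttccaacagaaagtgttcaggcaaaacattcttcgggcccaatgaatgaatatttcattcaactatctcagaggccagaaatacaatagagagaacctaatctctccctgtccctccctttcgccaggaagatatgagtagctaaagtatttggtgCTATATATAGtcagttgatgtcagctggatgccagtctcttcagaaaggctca
Cox6a2 promoter, GRCr8 chr1:192219717-192219966, minus strand: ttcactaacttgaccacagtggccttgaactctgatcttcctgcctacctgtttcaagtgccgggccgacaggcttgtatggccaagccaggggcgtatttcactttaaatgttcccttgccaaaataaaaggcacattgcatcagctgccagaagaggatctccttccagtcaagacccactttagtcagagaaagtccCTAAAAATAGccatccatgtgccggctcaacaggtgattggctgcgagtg
Des promoter, GRCr8 chr9:84299376-84299625, plus strand: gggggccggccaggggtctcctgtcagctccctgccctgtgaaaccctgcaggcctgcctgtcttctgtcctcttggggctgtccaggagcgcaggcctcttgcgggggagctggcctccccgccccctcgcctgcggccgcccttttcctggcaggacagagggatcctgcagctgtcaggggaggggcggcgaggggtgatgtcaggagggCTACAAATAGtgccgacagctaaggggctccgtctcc

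The capitals mark a CArG box in *Myl3* and *Acta1*, starting 97 and 94 bases before the RefSeq start, and the MEF2 core in *Myoz2*, *Cox6a2* and *Des*, starting 53, 50 and 37 bases before it. *Cox6a2*, the muscle form of a cytochrome c oxidase subunit, was at 9.74 and 9.06 in hippocampus and at 14.14 and 14.51 in heart. All 5 genes were lower in hippocampus, with differences from −5.79 (*Myl3*) to −4.59 (*Des*).

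Genes of calcium cycling, which switches contraction on and off, were lower in part. Of 17 measured genes, 6 were lower and 0 higher (median −0.65). Sarcolipin, *Sln*, an inhibitor of the calcium pump found in atria, was at 9.74 and 9.88 against 14.56 and 14.57 (−4.75, SE 0.70, adjusted p = 0.00171). The calcium-binding *Hrc* (−4.46) and calsequestrin, *Casq2* (−4.05), of the internal store and the junctional *Asph* (−3.80) were lower as well. Another probe set of *Asph* was higher (1.10, adjusted p = 0.0221). *Ryr2*, the channel that releases the stored calcium, was at 10.73 and 11.31 against 12.05 and 12.91 (−1.46), and its call was lost without hippocampus 1 or heart 2. At this probe set, its brightest, single arrays overlapped between tissues, although the samples did not. *Ryr2* was also lower at its other probe set (−2.09, SE 0.23, adjusted p = 0.000425), where hippocampus was under the 10th percentile.

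Genes of the heart's electrical activity and of its transcription factors mostly did not pass the test, with 5% and 8.7% called beside 20.1% of all genes. Of 20 ion channel and gap junction genes, 1 was lower, *Gja5*, the connexin of atrium and conduction tissue, at 11.10 and 10.91 against 12.69 and 13.39 (−2.03, SE 0.35, adjusted p = 0.00377). Counted by probe set, 6 of 36 of this list were called, 2 higher and 4 lower. Of 23 cardiac transcription factors, 2 were lower: *Tbx5*, at 6.46 and 6.89 against 8.63 and 8.92 (−2.10), and *Ppara*, a receptor that switches on fat burning (−1.67). *Nkx2-5* and *Gata4* (0.24) were not called, and 7 of 46 probe sets of this list were called lower when each was counted singly. Of 12 natriuretic peptide and receptor genes 2 were called (16.7%, beside 20.1% of all genes). *Nppa*, the atrial peptide hormone, was lower at 10.98 and 10.28 against 14.90 and 15.14 (−4.39, SE 0.66, adjusted p = 0.00189), and *Adra2a*, a noradrenaline receptor, was higher (1.46). The *Nppa* call did not depend on 1 sample, but without hippocampus 2 or heart 1 only 1 member of this list remained called.

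Genes of fuel use differed in the same direction. Of 31 measured genes of fatty acid uptake and oxidation, 15 were lower and 0 higher (median −1.11). *Cpt1b*, the muscle enzyme that lets fatty acids into mitochondria, was at 7.85 and 8.46 against 13.03 and 13.81 (−5.26, SE 0.33, adjusted p = 6.02e-05). *Cd36*, a fatty acid transporter, was at 7.01 and 6.93, under the 10th percentile in hippocampus, against 11.34 and 12.28 (−4.84). The long chain dehydrogenase *Acadl* (−4.85), lipoprotein lipase, *Lpl* (−4.75), the muscle fatty acid carrier *Fabp3* (−4.05) and the medium chain dehydrogenase *Acadm* (−3.35) were lower too. Within the trifunctional enzyme, which consists of an alpha and a beta subunit, *Hadhb* was lower (−3.55), and *Hadha* was not called at its brightest probe set, near 14.7 in both tissues (−0.11), but was lower at another (−1.65, adjusted p = 0.0186). Without any 1 adult sample 14 or 15 members were called.

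Many genes of mitochondrial oxidation were lower, by smaller amounts. Of 21 genes of the tricarboxylic acid cycle, 11 were lower and 0 higher (median −1.43), led by the mitochondrial isocitrate dehydrogenase *Idh2*, at 9.52 and 9.30 against 13.13 and 13.80 (−4.05, SE 0.36, adjusted p = 0.00016). The NAD-dependent subunits *Idh3b* (−2.78) and *Idh3g* (−2.39), *Mdh2* (−2.77) and *Ogdh* (−2.57) followed. Of 44 respiratory chain genes, 28 were lower and 0 higher (median −1.49), with differences from −2.71 for *Atp5f1c*, a subunit of ATP synthase, to −0.14. Some subunits with muscle forms are not in this list and were read as families. Among those *Cox8b*, the muscle form of a cytochrome c oxidase subunit, was at 8.60 and 8.65 against 15.02 and 15.20 (−6.49, SE 0.45). *Cox7a1* was at 14.30 and 14.04 against 14.88 and 14.78 without a call (−0.66, adjusted p = 0.178), and *Cox7a2l* was not called either (0.68). *Cox6a1* was called higher (0.99) and *Cox6a2* lower (−4.93). *Ndufs1*, a core subunit of complex I, was at 8.28 and 8.41 against 10.56 and 11.04 (−2.46, SE 0.25, adjusted p = 0.000279). The cytochrome c oxidase subunits *Cox4i1* (−0.53) and *Cox5a* (−0.45) were not called.

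The samples of a tissue also differed in the respiratory chain. Heart 2 was above heart 1 in 42 of the 44 genes, by a median of 0.66, and hippocampus 2 above hippocampus 1 in 39, by a median of 0.42. Over all genes these medians were 0.07 and 0.08. The number of called members was 11 without hippocampus 1 and 12 without heart 2, against 28 with all samples. Ketone body and branched chain genes had 4 of 10 lower and 0 higher, led by *Oxct1*, which activates ketone bodies, at 10.11 and 10.22 against 12.68 and 13.50 (−2.92), and 1 to 3 called when 1 sample was left out.

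Of 54 families of related genes with at least 2 measured members, 6 had members called in opposite directions, 15 had calls higher only, 16 lower only and 17 none. Among creatine kinases, which buffer ATP, the mitochondrial muscle form *Ckmt2* was at 7.51 and 7.70 against 13.18 and 14.06 (−6.02, SE 0.42, adjusted p = 7.87e-05) and the cytosolic muscle form *Ckm* at 8.85 and 8.93 against 13.08 and 13.97 (−4.64). The brain form *Ckb* was higher, at 10.71 and 11.07 against 9.60 and 9.75 (1.22, SE 0.29, adjusted p = 0.0165), and *Ckmt1* was not called (0.06). In the 6a subunit of cytochrome c oxidase, *Cox6a2* was lower (−4.93) and the form *Cox6a1* of other tissues higher, at 12.06 and 11.88 against 10.63 and 11.32 (0.99, adjusted p = 0.0349). Each pair was split in both samples of each tissue, which follows from picking opposite calls, as no called gene had overlapping samples.

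Fatty acid binding proteins were split between the tissues. *Fabp3* (−4.05) of muscle and *Fabp4* of fat and capillary endothelium, at 4.95 and 5.69 against 8.20 and 8.57 (−3.07), were lower, while *Fabp7* of glia was higher, at 11.41 and 11.83 against 7.16 and 6.17 (4.95, SE 0.43, adjusted p = 0.00014), with *Fabp5* (1.22) in the same direction. *Fabp7* in heart and *Fabp4* in hippocampus were under the 10th percentile, which leaves the size of these differences uncertain. Among lactate dehydrogenases *Ldhb*, the form abundant in heart, was lower, at 14.51 and 15.21 against 15.97 and 15.97 at the top of the scale (−1.11), *Ldha* was not called (−0.08) and the testis form *Ldhc* was higher (2.12). The connexin *Gja5* was lower (−2.03) and *Gjb6*, a connexin of astrocytes, higher (2.02), with *Gja1*, which both tissues are known to use, at 12.99 and 13.95 against 12.86 and 13.93 (0.08). Among tropomyosins *Tpm1* was lower (−2.64) and *Tpm3* higher (1.09, adjusted p = 0.049). The smaller differences depended on single samples. The calls of *Fabp5* and *Tpm3* were lost without each of the 4 adult samples, and those of *Ckb*, *Cox6a1*, *Ldhb* and *Gjb6* without 3 of them.

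**Figure D3:**
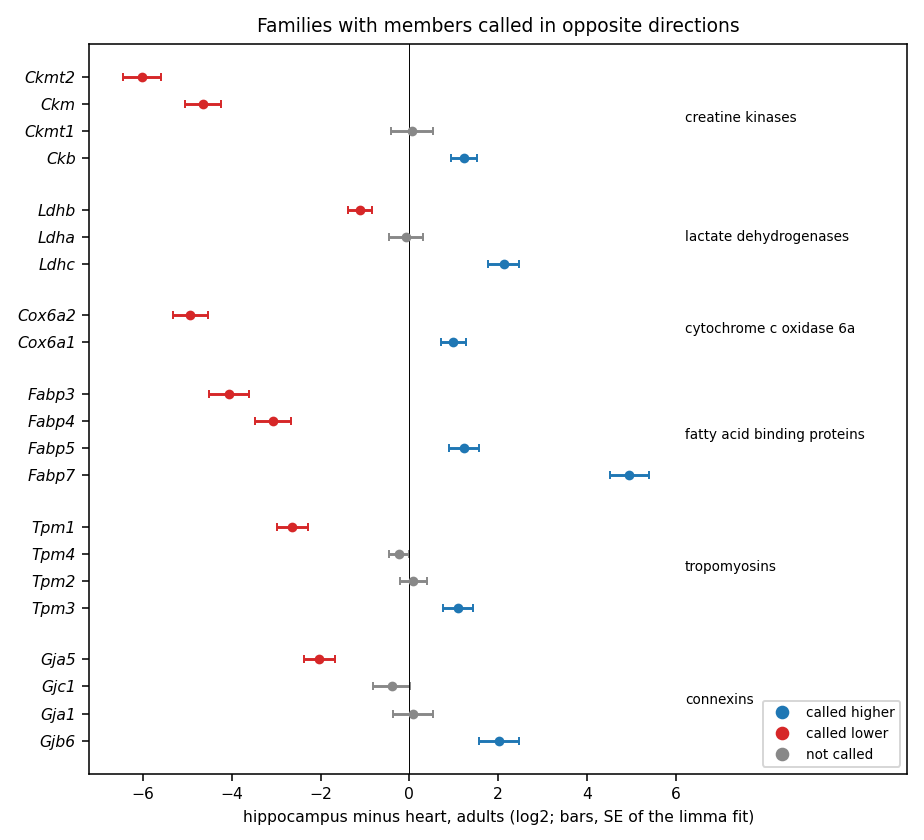
Hippocampus minus heart in adults (log2, horizontal axis) for every measured member of the 6 gene families with calls in opposite directions, with bars for the SE of the limma fit. Blue points were called higher, red lower and grey not called. *Ckmt2* (−6.02) and *Ckm* (−4.64) lie left of 0 and *Ckb* (1.22) right of it, and *Fabp3* (−4.05) and *Fabp7* (4.95) lie farthest apart within a family.

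Connective tissue genes were lower in hippocampus. Of 32 genes of extracellular matrix and fibroblasts, 16 were lower and 0 higher (median −1.14). The fibrillar collagen *Col1a1* was at 8.56 and 8.14 against 11.96 and 12.84 (−4.05, SE 0.64, adjusted p = 0.00239), followed by *Col3a1* (−3.14), *Col6a2* (−3.06), the calcification inhibitor *Mgp* (−2.96) and *Col1a2* (−2.94). Without hippocampus 2 or heart 2, 9 members were called. Of 20 endothelial genes, 6 were lower and 1 higher (median −0.23), with the receptor *Tek* at 8.60 and 8.62 against 11.35 and 10.97 (−2.55) and *Tie1* at −2.14. The higher member was *Slco1a4*, a transporter of the blood–brain barrier (1.19). Without hippocampus 2 or heart 1, 4 of them were called. Of 12 smooth muscle and pericyte genes 2 were lower and 0 higher (16.7% called, beside 20.1% of all genes). These were *Des*, also counted above among the Z-disc genes, and the contractile *Smtn* (−1.37). Not both calls held when single adult samples were left out.

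Blood and immune genes were called about as often as all genes (20.1%). Of 9 blood genes 1 was lower, the beta globin *Hbb*, at 13.85 and 14.16 against 15.21 and 15.26 (−1.23), and 1 was higher, *Cd3e* of T cells (1.66), whose call was lost without each adult sample. Without hippocampus 1 neither was called, and without any other sample 1 was. *Ptprc*, the surface protein of white blood cells, was at 7.25 on average in hippocampus and 8.08 in heart. Of 24 macrophage, microglia and antigen presentation genes, 4 were lower and 1 higher, and of its 33 probe sets 9 were lower and 1 higher. The lower ones serve antigen presentation or interferon responses, *Ifitm3* (−3.37), *Cd74* (−2.78), *Psmb8* (−2.34) and *B2m* (−1.92), and the higher one was the protease *Ctss*, at 12.48 and 13.07 against 9.68 and 9.77 (3.05). The microglial receptors *Cx3cr1* (0.35) and *P2ry12* (0.41) were not called at their brightest probe sets, and another of *P2ry12* was lower (−1.37, adjusted p = 0.0447).

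Markers of neighbouring tissue were called about as often as all genes (20.1%) or less, 21.7% of those for hippocampus and 15% of those for heart. Of 23 genes of tissue next to hippocampus 4 were higher and 1 lower (median 0.41), with 3 called without hippocampus 2, and of 20 for heart 1 was higher and 2 lower (median −0.31). *Ttr*, the transport protein made by choroid plexus, was at 14.30 and 15.03 in hippocampus and 10.63 and 11.18 in heart (3.76, SE 0.32, adjusted p = 0.000131), and the folate receptor *Folr1* was higher as well (1.75, lost without each adult sample). The other choroid plexus markers, *Kl* (−0.35), *Kcnj13* (−0.05) and *Otx2* (−0.16), were not called, and the summed level of the 5 markers was 14.45 and 15.14 in hippocampus against 11.54 and 12 in heart. None of 5 thalamus and striatum markers, 2 ependyma markers or 5 skeletal muscle markers was called at its brightest probe set. *Tcf7l2* of thalamus was higher at 2 other probe sets (1.64, adjusted p = 0.00722, and 1.27, adjusted p = 0.0464). On the heart side, *Plin1* of fat cells (−2.21) and *Sftpb* of lung, at 10.37 and 9.40 against 11.93 and 12.15 (−2.15), were lower in hippocampus, each with 2 further markers of its tissue not called. The summed level of the 3 lung markers was 11.16 and 10.61 in hippocampus and 12.34 and 12.57 in heart. All 4 atrial markers were lower, as were 2 of 3 ventricular ones. *Dbh*, which makes noradrenaline and marks sympathetic nerve, was higher in hippocampus, at 10.50 and 10.78 against 8.24 and 8.45 (2.30). The part of these tissues in the other results was not tested.

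**Figure D4:**
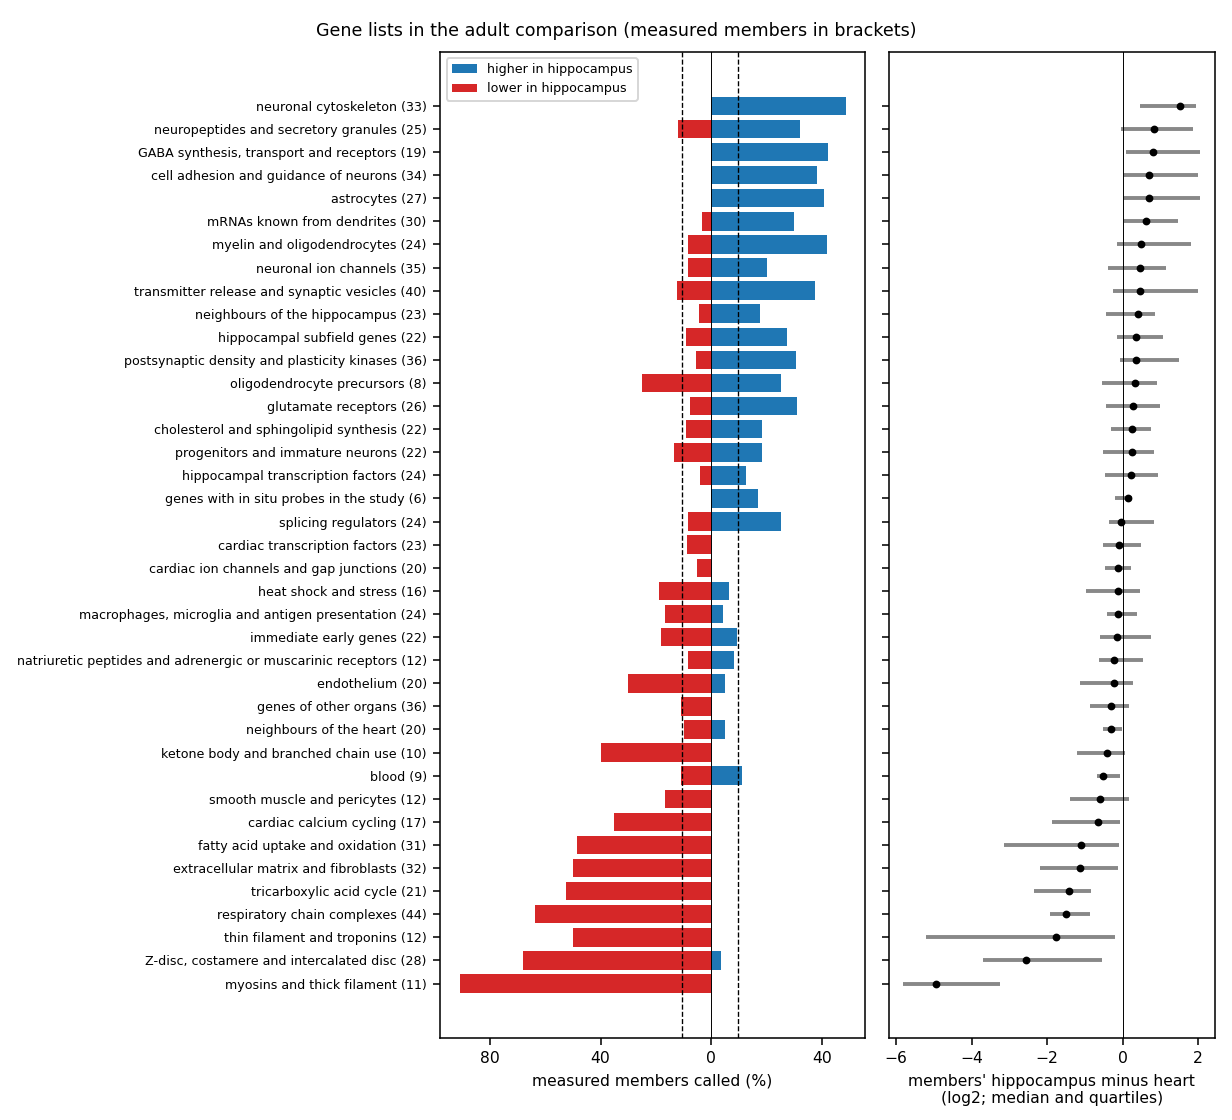
Gene lists (rows, with the number of measured members) in the adult comparison, ordered by median difference. Left: percent of members called higher (blue, right) and lower (red, left) in hippocampus, with dashed lines at the shares over all genes, 9.5% and 10.6%. Right: median (point) and quartiles (bar) of the members' hippocampus minus heart (log2). Myosins lie lowest with a median of −4.94 and 10 of 11 members called, and the neuronal cytoskeleton highest with 1.53 and 16 of 33.

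The largest difference of all was higher in hippocampus. *Elmod1*, a regulator of small GTPases, was at 11.88 and 12.65 in hippocampus and at 3.69 and 3.97 in heart (8.44, SE 0.50, adjusted p = 5.89e-05), and *Map2*, the microtubule protein of dendrites, at 10.75 and 10.73 against 5.15 and 4.82 (5.75, SE 0.34, adjusted p = 5.89e-05). In heart both lay far under the 10th percentile of 7.23, which leaves the size of these differences uncertain. *Scg2*, a granin of secretory granules, was at 12.70 and 13.52 against 7.28 and 7.28 (5.83). The neuronal ubiquitin hydrolase *Uchl1* (5.60), the secreted *Nell2* (5.69), the adhesion protein *Adam11* (5.56) and *Pcsk1n*, an inhibitor of prohormone cleavage (5.37, SE 1.03), came next. In all of these every hippocampus array lay above every heart array.

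The neuronal cytoskeleton was the list with the largest median towards hippocampus. Of 33 measured genes, 16 were higher and 0 lower (median 1.53). Besides *Map2* and *Uchl1* these included the medium neurofilament *Nefm*, at 11.03 and 11.69 against 7.94 and 7.66 (3.56, SE 0.52, adjusted p = 0.00161), the neuronal tubulin *Tubb3* (3.30), *Stmn2* (2.46) and the growth cone protein *Gap43* (1.90). Hippocampus 2 lay above hippocampus 1 in 24 of the 33 genes, by a median of 0.57, beside 57.2% of all genes and a median of 0.08. Without hippocampus 2, 9 members were called. Neuronal adhesion and guidance genes had 13 of 34 higher and 0 lower (median 0.71), led by *Nell2*, *Adam11*, *Edil3* (5.39), *Olfm1* (4.23) and *Thy1* (3.13).

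Glutamate receptors were higher in part of the family. Of 26 genes, 8 were higher and 2 lower (median 0.28). *Gria2*, the AMPA receptor subunit that limits calcium entry, was at 12.72 and 12.91 against 8.60 and 8.67 (4.19, SE 0.35, adjusted p = 0.00012), and another probe set of it differed by 3.87. *Cnih2*, an AMPA receptor auxiliary protein (3.34), the kainate receptor subunits *Grik5* (2.98) and *Grik2* (2.04) and the NMDA receptor subunit *Grin2a* (1.71) were also higher. *Gria1*, the usual partner of *Gria2*, was not called (−0.08), and the metabotropic receptors *Grm2* (−1.53) and *Grm7* (−1.0) were lower. The list had 6 members called without hippocampus 1, 6 without hippocampus 2 and 5 without heart 2, against 10 with all samples.

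In the postsynaptic density 11 of 36 genes were higher and 2 lower (median 0.35). *Camk2a*, the kinase that stores a trace of calcium signals, was at 13.41 and 14.18 against 8.35 and 8.92 (5.16, SE 0.41, adjusted p = 0.000111), and its partner *Camk2b* at 13.07 and 13.70 against 9.15 and 9.62 (4.0). The other 3 probe sets of *Camk2a* (−0.23, −0.33 and 0.48) and the other of *Camk2b* (−0.44) were not called. The scaffold *Shank2* (4.37), with heart values of 6.46 and 6.53 under the 10th percentile, the kinase *Camkk1* (3.34) and the spine protein *Baiap2* (3.18) followed. *Kalrn*, a spine regulator with forms in muscle too, was lower (−3.08), as was *Camk4* (−1.69). Without heart 1, 8 of these genes were called.

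Transmitter release had 15 of 40 genes higher and 5 lower (median 0.45). *Snap25*, which pulls vesicles to the membrane, was at 14.02 and 14.81 against 10.53 and 10.40 (3.95, SE 0.42, adjusted p = 0.000313), and *Nsf*, which recycles the fusion complex, at 13.42 and 14.15 against 9.66 and 9.76 (4.07). The vesicle proteins *Sv2b* (4.65), *Sncb* (3.80), *Vamp2* (3.05), *Syn1* (2.82) and *Rab3a* (2.13) were higher, as was the vesicular glutamate transporter *Slc17a7*, at 13.53 and 14.36 against 10.46 and 9.36 (4.03). *Unc13c* (−2.93), *Syt5* (−1.92), *Rims2* (−1.52), *Sh3gl2* (−1.17) and *Syn3* (−1.14) were lower, and *Syt1*, the main calcium sensor of release, was not called (−0.29). Members called numbered 8 without hippocampus 2, 11 without heart 1 and 12 without heart 2, against 20 with all samples.

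Genes of inhibitory signalling were higher where they were called. Of 19 genes, 8 were higher and 0 lower (median 0.80). *Gad1*, which makes GABA, was at 11.02 and 11.16 against 7.18 and 6.34 (4.34, SE 0.30, adjusted p = 7.96e-05), whereas its paralogue *Gad2* was not called (−0.47). The receptor subunits *Gabrb1* (3.80), *Gabra5* (3.27), which is typical of hippocampus, and *Gabbr1* (3.17) and the calcium buffer *Calb1* (2.13) were higher. Without hippocampus 1 or heart 2, 5 were called.

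Of 25 neuropeptide and granule genes, 8 were higher and 3 lower (median 0.84). Somatostatin, *Sst*, of interneurons was at 10.49 and 10.54 against 6.72 and 7.61 (3.35, SE 0.30, adjusted p = 0.000163), and the granins *Scg2* and *Scg3* (2.91) were higher. *Pam*, which amidates peptides and is also made in atria, was lower, at 11.60 and 12.17 against 14.45 and 14.75 (−2.72), together with the peptides *Nts* (−2.59) and *Crh* (−1.73). Of 35 neuronal ion channels 7 were higher and 3 lower (median 0.47, 28.6% called beside 20.1% of all genes). The presynaptic calcium channel *Cacna1b* was at 11.79 and 12.06 against 8.30 and 8.15 (3.70, SE 0.24, adjusted p = 6.84e-05). The fast potassium channel *Kcnc1* differed by 3.25 and, in the other direction, the calcium-activated *Kcnn1* by −2.17. Without hippocampus 2, 5 of the channels were called.

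The study is concerned with mRNAs in dendrites, and of 30 measured genes whose mRNAs are known from dendrites 9 were higher and 1 lower (median 0.62), with 6 called without hippocampus 2. These were led by *Map2*, *Camk2a*, *Shank2*, *Gria2* and the calcium sensor *Hpcal4* (3.31). Of the genes for which the study made in situ hybridisation probes 6 were measured under their current symbols. Of them 1 was called (16.7%, beside 20.1% of all genes), *Olfm1*, at 12.54 and 13.16 against 8.48 and 8.75 (4.23, SE 0.42, adjusted p = 0.000236). *Zfp410* was at 15.32 and 14.82 against 14.76 and 14.97, *Rps6* at 12.70 and 13.57 against 12.52 and 13.63, *H2az1* at 10.32 and 10.63 against 10.08 and 10.32, *Commd3* at 14.25 and 13.65 against 14.92 and 14.61, and *Clasrp* at 11.56 and 11.01 against 11.23 and 11.95. In these 5 genes the arrays of the tissues overlapped.

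Part of the glial genes were higher. Of 24 myelin and oligodendrocyte genes, 10 were higher and 2 lower (median 0.48). Myelin basic protein, *Mbp*, was at 14.31 and 15.04 against 10.65 and 9.57 (4.56, SE 0.45, adjusted p = 0.00024), and *Mag*, which holds myelin to the axon, at 13.19 and 14.06 against 9.31 and 9.67 (4.13). *Enpp2* (2.73), *Gpr37* (2.49) and *Cnp* (2.43) followed, while *Ugt8* (−1.30) and *Gal3st1* (−1.38), which make myelin lipids, were lower. Without hippocampus 2, 7 were called. Of 8 oligodendrocyte precursor genes 2 were higher and 2 lower, and 1 or 2 were called without any 1 sample.

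Of 27 astrocyte genes 11 were higher and 0 lower (median 0.69). The brain aldolase *Aldoc* was at 13.97 and 14.82 against 9.49 and 9.54 (4.88, SE 0.33, adjusted p = 7.77e-05), *S100b* at 13.82 and 14.73 against 9.58 and 10.21 (4.38), and the lipid carrier *Apoe* at 13.08 and 14 against 9.23 and 9.62 (4.12). The glutamate transporter *Slc1a3* (2.09) and *Sparcl1* (2.38) were higher, and *Slc1a2* (1.15) lost its call without each adult sample. Hippocampus 2 was above hippocampus 1 in 19 of the 27 members, though not in *Slc1a3* (13.77 and 12.66), and without hippocampus 2 the number called was 6. Of 22 genes of cholesterol and sphingolipid synthesis, 4 were higher and 2 lower (27.3% called, beside 20.1% of all genes). The sterol enzymes *Msmo1* (2.83) and *Sc5d* (2.42) were ahead. Not all of these calls held when single adult samples were left out.

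Of 24 hippocampal transcription factors 4 were called (16.7%), beside 20.1% of all genes. Of these 3 were higher, *Pou3f3* (2.60), *Myt1l* (1.92) and *Neurod1* (1.34), and 1 was lower, *Nr4a2* (−2.44). *Neurod2*, a factor of excitatory neurons, was at 14.70 and 15.37 against 15.23 and 15.58. Of 22 genes that mark hippocampal subfields, 6 were higher and 2 lower (36.4% called), with *Calb1* and *Pcp4* (1.67) ahead. The lower ones were *Dsp*, a marker of the dentate gyrus that also encodes the desmoplakin of cardiac cell junctions, at 9.52 and 9.86 against 12.97 and 13.75 (−3.67), and *Spink8* (−2.30). Called members numbered 5 without hippocampus 1, 4 without hippocampus 2 and 5 without heart 1. Of 22 genes of progenitors and immature neurons 4 were higher, led by *Eomes* (2.11) and *Cd24* (2.02), and 3 lower, *Top2a* (−2.06), *Pax6* (−1.76) and *Neurog2* (−1.62).

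Immediate early genes, which respond to stimulation within minutes, were called in both directions, 27.3% of them beside 20.1% of all genes. Of 22 measured, 2 were higher and 4 lower (median −0.15). *Fos* was at 9.57 and 10.85 in hippocampus and at 6.27 and 6.23 in heart (3.96, SE 0.58, adjusted p = 0.00165), and *Egr1* at 10.82 and 11.19 against 8.89 and 8.88 (2.12). *Nr4a2* was at 9.47 and 9.29 against 11.86 and 11.79 (−2.44), and *Atf3* (−1.48), *Nr4a1* (−1.40) and *Ier2* (−0.78) were lower too. The labels and methods do not say how the animals were handled before the RNA was made. Among 16 heat shock and stress genes the small heat shock proteins *Hspb8* (−3.16) and *Hspb1* (−3.05), both abundant in muscle, and the metallothionein *Mt1* (−1.0) were lower and *Hsph1* was higher (1.70), with 2 called without hippocampus 2. *Hspa1a*, the inducible chaperone, was not called (−0.96). Of the heat shock and stress genes 25% were called, also near the share over all genes.

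Splicing regulators included 6 higher and 2 lower genes of 24 measured (33.3% called, beside 20.1% of all genes). *Rbfox3*, the neuronal nuclear antigen, was at 11.48 and 11.73 against 9.65 and 8.51 (2.52), with *Elavl2* (2.50), *Celf5* (2.37), *Celf4* (2.33) and *Elavl4* (2.27) close to it, and *Rbm38* (−1.46) and *Mbnl3* (−1.42) were lower. Called members numbered 5 without hippocampus 1, 4 without hippocampus 2 and 4 without heart 2.

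Reading a gene by its brightest probe set hid some differences, as several genes chosen after their values were seen show. Phospholamban, *Pln*, the main brake of the cardiac calcium pump, was at 14.84 and 13.93 against 15.77 and 15.67 at its brightest probe set (−1.33, adjusted p = 0.0651), but another was at 8.11 and 8.09 against 14.90 and 15.24 (−6.97, SE 0.83, adjusted p = 0.000579). The calcium pump *Atp2a2* itself had 5 probe sets, with differences of 0.25, −2.13, 1.04, −2.14 and 0.73, of which the 2 negative ones were called. *Tpm1* had 7, from −6.56 to 0.87, of which 4 were called, all lower. In *Tpm3*, called higher at its brightest probe set, 1 of the other 11 was called in the opposite direction, at 8.32 and 7.76 against 11.90 and 12.11 (−3.97).

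The same held on the brain side. *Aqp4*, the water channel of astrocyte endfeet, was at 11.57 and 11.06 against 12.77 and 12.31 at its brightest probe set (−1.22, not called) and at 10.47 and 10.59 against 7.18 and 7.64 at another (3.12, SE 0.32, adjusted p = 0.000296). *Dlg4*, which encodes the scaffold PSD-95, was between 14.19 and 15.55 in all samples at 3 probe sets and higher at the remaining one, at 9.44 and 9.58 against 8.22 and 7.86 (1.47, adjusted p = 0.00653). *Tubb3*, *Myt1l* and *Elavl2* each had a probe set called lower beside those called higher. In *Map2* (0.30), *Slc17a7* (−0.42) and *Gad1* (0.22), called higher at the brightest probe set, the other was not called. The same was true towards heart of *Tnnt2* (−0.54), *Myh6* (−1.70) and *Myh7* (−1.75). *Slc34a1*, of the genes of other organs, was lower at its brightest probe set and higher at another (1.17, adjusted p = 0.00847). Over all called genes, 194 of 1172 further probe sets were called in the same direction and 80 in the opposite one. When every probe set of a list was counted, calcium cycling went from 6 of 17 genes called to 14 of 37 probe sets, the neuronal cytoskeleton from 16 of 33 to 28 of 61, and the postsynaptic density from 13 of 36 to 24 of 79.

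**Figure D5:**
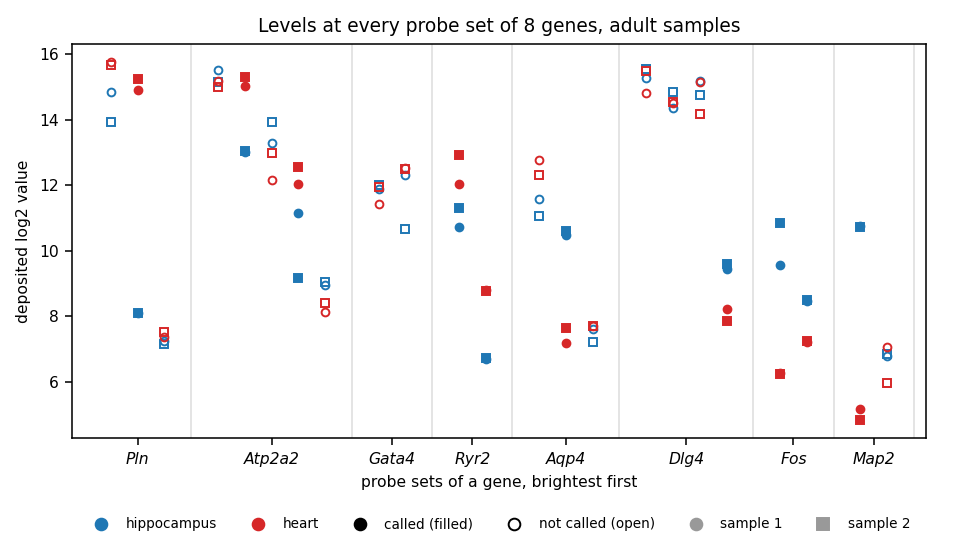
Deposited log2 values (vertical axis) at every probe set of 8 genes (horizontal axis, brightest on the left within a gene) in adult hippocampus (blue) and heart (red), with circles for sample 1 and squares for sample 2. Filled symbols mark probe sets whose difference was called. Tissues are to be compared within a probe set: in *Pln* the brightest lies near the top in both tissues, whereas the next is at 8.11 and 8.09 against 14.90 and 15.24.

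The tissue labels were checked against markers, and against genes of other organs, of which 11.1% were called beside 20.1% of all genes. Of 8 measured hippocampal markers 5 were higher and 0 lower (*Snap25*, *Slc17a7*, *Gad1*, *Camk2a* and *Mbp*), with *Gfap*, *Aqp4* and *Neurod6* (0.85) not called, and of 8 heart markers 6 were lower and 0 higher, with *Gata4* and *Nkx2-5* not called. Of 36 genes of other organs 0 were higher and 4 lower (median −0.30), *Serpina1* (−1.89), *Slc34a1* (−1.52), *Fabp2* (−1.51) and *Tshb* (−0.93), and 2 to 4 were called without any 1 sample.

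Whether the adult differences departed from those of pups was tested directly as the adult difference minus the pup difference. This was called at 24 of 31042 probe sets (0.0773%), 9 positive and 15 negative, with 3614 at an unadjusted p under 0.05. Named genes read by these probe sets numbered 15. *Lrrc15*, a leucine-rich repeat membrane protein, was at 7.53 and 7.47 in adult hippocampus and 10.36 and 11.14 in adult heart (−3.25), beside a pup difference of −0.02. *Postn*, a matrix protein of growing and injured heart, was at 6.68 and 6.52 against 7.37 and 7.12 in adults (−0.65) and differed by −4.17 in pups. Of the genes above, *Myh7* differed by −6.91 in adults and −2.48 in pups without passing this test (−4.43, SE 0.76, adjusted p = 0.0747), with pup means of 7.88 in hippocampus and 10.35 in heart, and *Sv2b* by 4.65 and 0.91 (adjusted p = 0.0979). *Samhd1*, which degrades deoxynucleotides, was at 8.03 and 8.03 against 13.71 and 12.61 in adults (−5.13) and differed by 0.57 in pups, also without passing (SE 1.5, adjusted p = 0.19). Without any 1 adult sample limma called 0 probe sets, with 2558 to 3124 at an unadjusted p under 0.05.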

How the data were processed

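By the methods, purchased adult total RNA, which the labels' protocol calls mRNA, and mRNA isolated from pup tissue were amplified to aRNA, which was hybridised to Affymetrix rat expression arrays. The values used are the log2 levels deposited by the authors, made with RMA 2.0 per the submitters' processing notes and, by the methods, an upper decile over the probes of a set. The methods also describe centring and scaling of arrays, which the deposited values do not show, and this was tried as an alternative. Of 31099 probe sets, 57 Affymetrix controls were left out. Technical arrays were averaged, and limma 3.58.1 in R 4.3.3 fitted the 10 biological samples in 4 groups (residual degrees of freedom 6, prior 3.55), so that the groups share an estimate of the spread. Adults alone give 2 of these residual degrees of freedom and pups the rest. P-values were adjusted by Benjamini-Hochberg over 31042 probe sets. The number of arrays limits the precision.

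Probe sets were named from the platform annotation, 20826 with 1 symbol, 436 with several and 9780 with none listed. Each gene is represented by whichever of its probe sets was brightest on average over all samples. Genes were named by rule: the 20 largest called differences in each direction, up to 5 called members of each list with the largest difference, families with calls in opposite directions, the largest member of a list without calls, the 8 called genes with the largest adult minus pup difference in each direction, and the genes with in situ probes in the study. Symbols starting with LOC or RGD or holding -ps were left out, and not every gene that qualified is printed. A further 68 were named after their values were seen. The members and lists were chosen with earlier results of these data known. Alternatives were other scaling, single technical arrays, every array with the sample as a random block, adults alone, brighter probe sets, a variance trend, a replicate block, the methods' t-test, a threshold of 0.001, each adult sample left out and, added after seeing the data, every probe set counted on its own. Tested on simulated data for the adult tissue contrast over 31042 probe sets, the fit recovered 0%, 62.69% and 89.55% of changes of 1, 2 and 3 on the log2 scale. Only 67 probe sets were changed by each size, far fewer than the 6052 called in the data. The Benjamini-Hochberg threshold depends on that share, so these recoveries do not carry over to the data.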

Additional observations from a re-analysis of the deposited data

Results flagged for a closer look

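For 15 genes the adult difference between hippocampus and heart was called different from that of pups. Limma's test of the adult difference minus the pup difference gave adjusted p between 0.0428 and 0.0487 for all of them. These calls were fragile: all 15 were lost with technical array 2 alone and with a replicate block, and 13 after range scaling. Age, RNA source and preparation cannot be told apart here. In 6 of the genes the adult tissues were not called different and the pups carried the difference. These were *Postn* (3.53) of the matrix, *Fam111a* (3.34), a protease, *Alox15* (3.11), a lipoxygenase, *Zfp74* (2.76), *Ccnb2* (2.27), a cyclin of dividing cells, and, with the opposite sign, *Adamts4* (−2.95), a matrix protease. In *Lrrc15* (−3.23) and *Adgrl2* (−2.78) the adult tissues differed by −3.25 and −2.82 and the pups by −0.02 and −0.04. In *Adgrl2* the technical arrays of a heart sample were far apart, at 14.63 and 10.53 and at 14.45 and 11.30, and single arrays of the tissues overlapped. In *Ly49s7* (−2.99) adults differed by −4.51 and pups by −1.52, in *Zfp57* (−2.83) by 1.40 and 4.23, and in *Cav3* (2.45), a caveolin of muscle, by −0.96 and −3.40. The tissue differences had opposite signs at the 2 ages in *Lrrc75a* (−4.15), with −3.22 in adults and 0.93 in pups, in *Rnf26* (−2.30), with −1.61 and 0.69, in *Chrnb2* (−2.18), a nicotinic receptor subunit, with −0.97 and 1.21, and in *Olr1271* (2.51), an olfactory receptor, with 2.06 and −0.45.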

How the results depend on the processing

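Of 31042 probe sets 6052 were called, and 4486 when only the 19219 brighter ones were tested. The number over all 31042 stayed between 5152 and 6733 with quantile normalization, range scaling, either technical array alone, adults alone or a variance trend. It was 9176 with every array and the sample as a random block, 811 at a threshold of 0.001, and 2876 to 3852 when 1 adult sample was left out, lowest without hippocampus 2. For the lone sample left in a tissue the spread of the other groups was then assumed. The methods' t-test called 3 after Benjamini-Hochberg adjustment, with 7498 at an unadjusted p under 0.05. The adult minus pup difference, called at 24 probe sets, was called at 3 after range scaling, 350 with every array, 51 and 1 with technical array 1 or 2 alone, and by limma at 0 at a threshold of 0.001 (3614 at an unadjusted p under 0.05). It was called at 0 to 0 without any 1 adult sample, with 2558 to 3124 unadjusted. With the replicate number as a block 4823 probe sets were called for the adult tissues and 0 for the adult minus pup difference (3475 unadjusted). Same-numbered samples correlated in their deviations at 0.283 in adults and at 0.0665, −0.0222 and −0.214 in pups, so the numbers were not taken to pair samples. The cause of these changes was not tested. Among genes with a mean level above 15, 0.454% were called.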
